A study of Mus musculus with 8 samples.

Results

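The genes described here are 10 members of the BCL2 family, Bcl2, Bcl2l1, Mcl1, Bax, Bak1, Bcl2l11, Bid, Bad, Bbc3 and Pmaip1, whose products decide whether a cell keeps its mitochondria intact or enters apoptosis. They were taken by symbol from the 28239 symbols of the count table, and all 10 passed the filter on low values. Naive CD4+ T cells from mouse spleen were differentiated to Tregs, the regulatory T cells that restrain other immune cells, for 2 days with IL-2 at 100 U/ml, TGF-β at 5 ng/ml and 1 activating bead with antibodies to CD3 and CD28 per cell. One group of 4 libraries, labelled KO, came from mice labelled Alox15-/- on a C57BL/6 background, a strain bred to lack the lipid mediator enzyme ALOX15, and the other group of 4, labelled WT, came from C57BL/6 mice. The study used female and male mice 10 to 12 weeks old and obtained the Alox15-/- animals and the C57BL/6 animals from different vendors, so that genotype and vendor cannot be told apart. RNA was profiled by MACE-seq, which counts transcripts by a tag near their 3′ end. The question put to the members was whether their transcripts differed between Tregs from the 2 groups on day 2.

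BCL2 proteins fall into 3 classes. The survival proteins BCL2, BCL-XL (from Bcl2l1) and MCL1 hold the killer proteins in check. The effectors BAX and BAK (from Bak1) form pores in the mitochondrial outer membrane, which lets cytochrome c out to activate caspases. The BH3-only proteins sense stress and either block the survival proteins or activate the effectors. In T cells, BIM (from Bcl2l11) removes cells when cytokine is withdrawn, MCL1 is required for lymphocytes, Tregs included, to survive, and IL-2 signaling and co-stimulation through CD28 are known to raise survival proteins.

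What the family shares is the BH3 segment, the helix by which one member docks in the groove of another, and the codons for its core are shown because they are the common feature behind the 3 classes. Each run below gives 27 bases 5′ to 3′ on the coding strand, from GENCODE transcripts of GRCm38, with the leucine codon in capitals and then, also in capitals, the pair of codons for a small residue and the aspartate that follows it. All of these runs lay within 1 coding exon. Members of the survival class come first, then the effectors and the BH3-only genes.
Bcl2, chr1:106712578-106712604, minus strand, exon 1: accCTCcgccgggctGGGGATgacttc
Bcl2l1, chr2:152829700-152829726, minus strand, exon 2: gcgCTGagagaggcaGGCGATgagttt
Mcl1, chr3:95659433-95659459, plus strand, exon 1: accCTGcggcgcgtgGGCGACggcgtg
Bax, chr7:45466000-45466026, minus strand, exon 3: tgtCTCcggcgaattGGAGATgaactg
Bak1, chr17:27022534-27022560, minus strand, exon 4: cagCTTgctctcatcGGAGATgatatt
Bcl2l11, chr2:128147147-128147173, plus strand, exon 3: gagCTGcggcggatcGGAGACgagttc
Bid, chr6:120897292-120897318, minus strand, exon 4: catCTCgcccaaataGGCGATgagatg
Bad, chr19:6950789-6950815, plus strand, exon 3: gagCTCcgaaggatgAGCGATgagttt
Bbc3, chr7:16313770-16313796, plus strand, exon 3: cagCTGcggcggatgGCGGACgacctc

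The small residue is glycine in the survival proteins, the effectors, BIM and BID, whereas Bad carries a serine codon and Bbc3 an alanine codon at that place. The runs were found by a pattern of codons (leucine, then arginine, lysine or alanine, then any pair, then glycine, alanine or serine, then aspartate, then aspartate, glutamate or glycine). It was written to take in these members, and it matched once in each of the 9 shown. Pmaip1 was not searched. The same pattern was present in 382 of 21576 mouse genes with a complete coding sequence in the annotation, or 1.77%. The MACE-seq tags lie near the 3′ ends of transcripts and were counted per symbol, so the values that follow do not tell apart the splice forms of a member.

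No member passed the test between libraries labelled KO and WT. With edgeR's quasi-likelihood test and Benjamini-Hochberg adjustment over the 12700 genes tested, 0 of 10 members had an adjusted p below 0.05, and their adjusted p lay between 0.616 and 0.982. Over all genes tested, 158 passed, or 1.24%, of which 133 were higher and 25 lower in the libraries labelled KO. DESeq2 and limma-voom also called 0 members. At an unadjusted p below 0.05 in edgeR there were 2 members, Bcl2l1 and Bak1, beside 996 genes (7.84%) overall. In no member did all libraries of one group lie above all of the other, a separation shown by 667 genes (5.25%). The members' log2 fold changes ran from -0.46 to 0.46 with a median of 0.13, and 8 of 10 were above 0, while the median over all genes tested was -0.01 and 48.2% were above 0. None of the members had a log2 fold change over 0.5 in size, a value passed by 724 genes, or 5.70% of those tested.

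The targeted gene went against the labels. Alox15, at chr11:70344152-70352031 on the minus strand, measured 70.5, 69.2, 63.7 and 65.3 CPM, counts scaled to the size of the library, in the libraries labelled KO and 1.88, 2.56, 7.77 and 9.02 in those labelled WT. It was thus higher in all libraries labelled KO, with a log2 fold change of 3.65 (SE 0.299, adjusted p = 1.08e-05, edgeR). A tag near the 3′ end need not cover the altered part of a gene. Which part was altered is not given in the sources used here. Neither why the counts were higher in the libraries labelled KO nor whether the labels of the groups are exchanged was tested. The Alox15 counts were thus not taken as a check of the genotype. Every direction below is therefore one between libraries labelled KO and libraries labelled WT. None of the members lies on chromosome 11 with Alox15.

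Total counts lay between 3723151 and 6952596 in the libraries labelled KO and between 4810125 and 9538962 in those labelled WT. All 11 markers of CD4+ T cells and Tregs were well above the filter, with summed levels of 3983 to 4298 CPM (KO) and 4189 to 4301 CPM (WT). Of these, 0 of 11 passed the test in edgeR. At an unadjusted p below 0.05 there were 2, Cd4 (log2 fold change -0.32) and Cd3g (0.31), whose groups did not overlap. Among all genes tested, 7.84% were at this unadjusted level and 5.25% had groups that did not overlap. Foxp3, the defining transcription factor of Tregs, was at 71.7 to 114 CPM (KO) and 93.4 to 195 CPM (WT), overlapping ranges with a log2 fold change of -0.42 (adjusted p = 0.655, edgeR). Summed markers of 5 other kinds of blood cell were higher in the libraries labelled KO without overlap. The summed erythroid markers were at 908 to 3491 CPM (KO) and 33.9 to 123 CPM (WT), and all 5 tested passed. Mast cell and basophil markers (7 of 8 passed) were at 143 to 367 CPM and 59.3 to 83.9 CPM, eosinophil markers (2 of 2) at 21.1 to 74.1 CPM and 1.25 to 10.4 CPM, and myeloid markers (5 of 6) at 47.5 to 329 CPM and 10.8 to 18.3 CPM. Markers of NK and γδ T cells, summed together (4 of 6), were at 99.8 to 183 CPM and 50.8 to 67.1 CPM. Those that passed were the γδ T cell receptor genes Trdc, Tcrg-C1 and Tcrg-C4, and Klrd1, while Eomes and Nkg7 did not. The NK receptor gene Klrb1c, too low to test, had 2 to 13 counts (KO) and 1 to 11 counts (WT). Sums for B cells, with Ms4a1 lower in the libraries labelled KO, for CD8+ T cells and for dendritic cells overlapped, with Cd8a at a log2 fold change of -0.69 and Cd8b1 at -0.65 (adjusted p = 0.560 and 0.205, edgeR). Of the markers too low to test, some were at or near 0 in all libraries, with at most 3 counts of the eosinophil receptor Siglecf, 6 of the NK receptor Ncr1, 7 of the myeloid integrin Itgam and 7 of the dendritic cell receptor Xcr1. Others had more counts in the libraries labelled KO, such as the eosinophil ribonuclease Ear6 with 5 to 15 (KO) and 0 (WT) and the erythrocyte anion exchanger Slc4a1 with 11 to 29 (KO) and 1 to 7 (WT). The libraries labelled KO with replicate numbers 2 and 3 held the most erythroid and myeloid counts, and without them 0 of 10 members passed and 60 genes did overall. The part of these cells in the members' values was not tested otherwise, and in bulk RNA fewer cells of a type and less RNA per cell cannot be told apart. By the study's methods, the naive CD4+ T cells had been isolated from spleen cells by immunomagnetic negative selection before the culture.

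**Figure D1:**
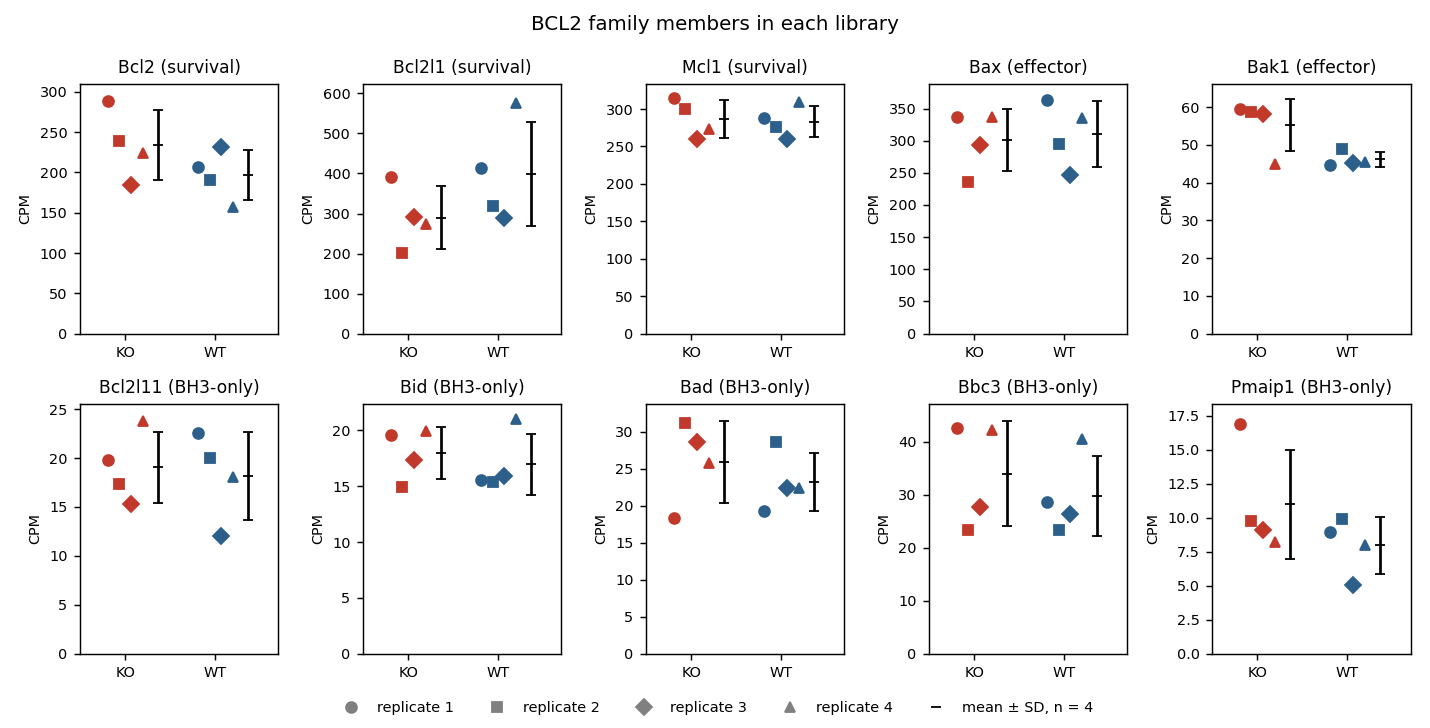
Level of each member in CPM (y axes, from 0) in the libraries labelled KO (red) and WT (blue), with 1 symbol per library and black bars for the mean ± SD of 4 libraries. In all 10 panels the groups overlap, with Bcl2l1 at 201 to 392.03 CPM (KO) and 288 to 576 CPM (WT).

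Among the survival genes, Bcl2l1 was on average lower and Bcl2 higher in the libraries labelled KO, while the groups were nearly equal for Mcl1, and none of the 3 passed the test. Bcl2l1, which encodes BCL-XL, lies at chr2:152780668-152831728 on the minus strand. It measured 392.03, 201, 291 and 275 CPM in the libraries labelled KO 1 to 4, and 415, 318, 288 and 576 CPM in WT 1 to 4. The highest value was in WT 4 and the lowest in KO 2, and KO 1 lay above 2 of the WT libraries. The means were 289.8 ± 78.6 CPM (KO) and 399 ± 130 CPM (WT, SD, n = 4 each). The log2 fold change was -0.46 (SE 0.207, 95% interval -0.90 to -0.02), or a fold of 0.727, with an unadjusted p of 0.0422 and an adjusted p of 0.616 in edgeR. The value depended on single libraries. Without WT 4 the log2 fold change was -0.23 (adjusted p = 0.778, edgeR), and without KO 1 it was -0.64 (adjusted p = 0.367). Without KO 2 and KO 3, the libraries with the most erythroid counts, it was -0.26. In DESeq2 the unadjusted p was 0.135 (adjusted p = 0.936), and with no filter on low counts Bcl2l1 passed in edgeR (log2 fold change -0.48, adjusted p = 0.00166).

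Bcl2l1 was also the most variable of the 3 survival members within groups. Its coefficient of variation within groups was 29.9%, against a counting error of 2.43% from its 741 to 2857 counts per library. Of the 927 genes with a mean level within 2-fold of it, 1.73% had a larger within-group variation, and their median was 10.1%.

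Bcl2, the founding survival gene of the family, spans chr1:106538178-106714274 on the minus strand. Its levels were 289, 239, 185 and 224 CPM in KO 1 to 4 and 207, 191, 231 and 157 CPM in WT 1 to 4. The highest library was KO 1 and the lowest WT 4, with KO 3 below 3 of the WT libraries. Means were 234 ± 43.1 CPM (KO) and 197 ± 31.1 CPM (WT), a log2 fold change of 0.25 (SE 0.140, 95% interval -0.05 to 0.55, adjusted p = 0.730, edgeR). It lay between 0.13 without KO 1 and 0.35 without KO 3, with 0.16 without WT 4 and 0.34 without WT 3, and was 0.38 without KO 2 and KO 3 (adjusted p = 0.757, edgeR). Bcl2 shares 558 exonic bases with the antisense gene D630008O14Rik on the opposite strand, which had 0 to 4 counts per library.

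Mcl1, whose short-lived protein is replaced continually, lies at chr3:95658788-95663176 on the plus strand and was the steadiest member. It was at 315, 299.6, 259 and 274 CPM in KO 1 to 4 and at 288, 276, 260.3 and 309 CPM in WT 1 to 4. The highest library exceeded the lowest by 1.22-fold, and the ranges of the groups lay almost on top of each other. The mean was 287 ± 25.1 CPM in the libraries labelled KO and 283 ± 20.5 CPM in those labelled WT, and the log2 fold change of 0.02 (SE 0.0978) had a 95% interval of -0.19 to 0.23, or a fold of 0.877 to 1.17. Within-group variation was 8.04%, and 70.8% of genes at its level varied more. A transcript of the gene model Gm20432, which is not in the table, matched Mcl1 at 91.2% identity over 251 bases, so some tags could have been divided between them.

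The effectors showed no difference that passed the test. Bax, at chr7:45461697-45466898 on the minus strand, measured 337, 235, 293 and 337 CPM in KO 1 to 4 and 364, 295, 246 and 335 CPM in WT 1 to 4. High and low libraries occurred in both groups, with the maximum in WT 1 and the minimum in KO 2. Its means of 300.5 ± 48.2 CPM (KO) and 310.0 ± 51.2 CPM (WT) gave a log2 fold change of -0.04 (SE 0.136, 95% interval -0.33 to 0.25), whose sign turned when KO 2, WT 1 or WT 4 was left out. Bax shares 192 exonic bases on the same strand with the gene model Gm45808 (8.64 ± 1.73 CPM in KO and 5.20 ± 0.890 CPM in WT), and the sum of both had a log2 fold change of -0.03.

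Bak1, at chr17:27019810-27029009 on the minus strand, was at 59.4, 58.6, 58.1 and 44.9 CPM in KO 1 to 4 and at 44.7, 49.0, 45.3 and 45.5 CPM in WT 1 to 4. Thus 3 libraries labelled KO lay above all WT libraries, and KO 4 lay among them, above WT 1 only. With means of 55.2 ± 6.92 CPM (KO) and 46.1 ± 1.95 CPM (WT), the log2 fold change was 0.25 (SE 0.115, 95% interval 0.01 to 0.50), with an unadjusted p of 0.0430 and an adjusted p of 0.617 in edgeR. Without KO 4 it was 0.35 (adjusted p = 0.353) and without KO 2 and KO 3 it was 0.17 (adjusted p = 0.916), so the value depended on which libraries labelled KO were kept. Bak1 had 216 to 449 counts per library, a counting error of 6.00%, close to its within-group variation of 9.35%. It shares 437 exonic bases with Ggnbp1 on the opposite strand, and whether counting used strand is not given in the sources used here. The sum of both genes had a log2 fold change of 0.23 (adjusted p = 0.637, edgeR).

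**Figure D2:**
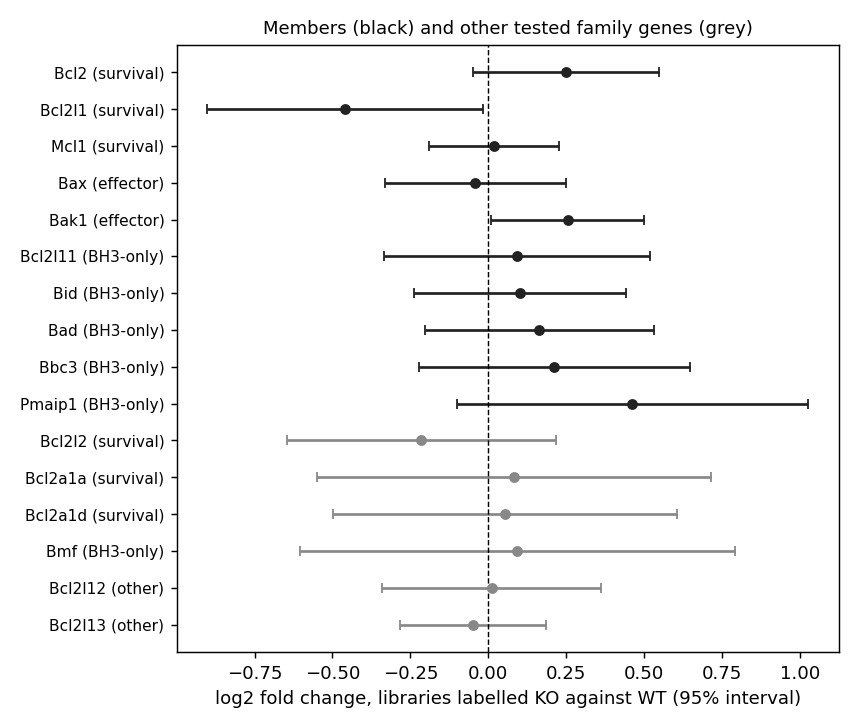
Log2 fold change between libraries labelled KO and WT (x axis) with its 95% interval from edgeR for the members (black) and the 6 other family genes tested (grey). The intervals of 8 members and of all 6 other genes include 0, and those of Bcl2l1 (-0.90 to -0.02) and Bak1 (0.01 to 0.50) end close to it.

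The 5 BH3-only genes all had log2 fold changes above 0, between 0.09 and 0.46, and none passed the test. They had the fewest counts of the members, 36 to 293 per library. Bcl2l11, which encodes BIM, lies at chr2:128126038-128162547 on the plus strand and was at 19.8, 17.4, 15.3 and 23.7 CPM in KO 1 to 4 and at 22.6, 20.0, 12.003 and 18.05 CPM in WT 1 to 4. Libraries of both groups were interleaved. The means of 19.1 ± 3.62 CPM (KO) and 18.2 ± 4.51 CPM (WT) gave a log2 fold change of 0.09 (SE 0.200, 95% interval -0.34 to 0.52). This value turned negative without KO 4 or without WT 3, and was 0.28 without KO 2 and KO 3.

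Bid, the link from death receptors to mitochondria once caspases have cut its protein, spans chr6:120891930-120916853 on the minus strand. Its levels were 19.6, 14.9, 17.4 and 20.0 CPM in KO 1 to 4 and 15.5, 15.4, 15.9 and 20.99 CPM in WT 1 to 4. WT 4 stood above every other library and KO 2 below. The means were 17.97 ± 2.32 CPM (KO) and 17.0 ± 2.70 CPM (WT), with a log2 fold change of 0.10 (SE 0.159, 95% interval -0.24 to 0.44). With 1 library left out it lay between 0.04 (without KO 4) and 0.21 (without WT 4), and it was 0.23 without KO 2 and KO 3. Bid shares 628 exonic bases with Bcl2l13 on the opposite strand, a gene at 49.1 ± 4.28 CPM (KO) and 50.5 ± 3.59 CPM (WT), and the sum of the 2 had a log2 fold change of -0.01.

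Bad, whose protein is held inactive by growth factor signaling through AKT and 14-3-3 proteins, lies at chr19:6941861-6951899 on the plus strand. It was at 18.3, 31.2, 28.6 and 25.8 CPM in KO 1 to 4 and at 19.3, 28.7, 22.4 and 22.5 CPM in WT 1 to 4. Both the highest library, KO 2, and the lowest, KO 1, were labelled KO, so the range of that group enclosed the other. The log2 fold change was 0.16 (SE 0.172, 95% interval -0.20 to 0.53), from means of 26.0 ± 5.55 CPM (KO) and 23.2 ± 3.93 CPM (WT). It lay between 0.07 without KO 2 and 0.29 without KO 1, and was -0.05 without KO 2 and KO 3. Summed with Gpr137, which overlaps it by 524 exonic bases on the opposite strand, it was 0.08.

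Bbc3, which encodes the p53 target PUMA, lies at chr7:16308393-16318205 on the plus strand. It measured 42.5, 23.3, 27.6 and 42.2 CPM in KO 1 to 4 and 28.5, 23.4, 26.3 and 40.5 CPM in WT 1 to 4. KO 1, KO 4 and WT 4 lay between 40.5 and 42.5 CPM and the other 5 libraries at 28.5 CPM or less, which cut across the groups. Means were 33.9 ± 9.88 CPM (KO) and 29.7 ± 7.51 CPM (WT), with a log2 fold change of 0.21 (SE 0.204, 95% interval -0.22 to 0.65, adjusted p = 0.857, edgeR). Its within-group variation of 27.3% exceeded that of all but 5.14% of the 4724 genes at its level, against a counting error of 7.82%. The log2 fold change was 0.08 without KO 4, 0.10 without KO 1, 0.12 without WT 2, 0.35 without KO 2 and 0.39 without WT 4. Without KO 2 and KO 3 it was 0.52 (adjusted p = 0.688, edgeR).

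Pmaip1, which encodes the MCL1 antagonist NOXA, lies at chr18:66458533-66465565 on the plus strand. It had the largest log2 fold change above 0 and also the fewest counts, 36 to 70 per library. The values were 16.9, 9.77, 9.08 and 8.20 CPM in KO 1 to 4 and 8.94, 9.93, 5.04 and 7.97 CPM in WT 1 to 4. KO 1 stood above all other libraries and WT 3 below them, whereas the remaining 6 lay between 7.97 and 9.93 CPM. Means of 10.99 ± 3.99 CPM (KO) and 7.97 ± 2.11 CPM (WT) gave a log2 fold change of 0.46 (SE 0.265, 95% interval -0.10 to 1.03, adjusted p = 0.738, edgeR). It was 0.19 without KO 1, 0.27 without WT 3, 0.59 without KO 4 and 0.64 without KO 2 and KO 3. A fold of up to 2.04 was thus within the interval for this gene, against 1.17 for Mcl1.

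Set on a scale of CPM per kilobase of the longest annotated transcript, the members fell into tiers. Bax was highest at a mean of 277 CPM per kilobase, followed by Bcl2l1 at 134 and Mcl1 at 83.4. Next came Bcl2 at 29.9, Bak1 at 21.2, Bbc3 at 17.5 and Bad at 16.04 CPM per kilobase. Bid (7.23), Bcl2l11 (3.695) and Pmaip1 (3.48) were lowest. Over the 8 libraries, the ranges of these levels overlapped between each pair of neighbours in the order, with the exception of Mcl1 above Bcl2, Bad above Bid and Bid above Bcl2l11. A 3′ tag is counted once per transcript whatever its length, so these tiers rest on the division by length. Undivided, the means were 345 CPM for Bcl2l1, 305 for Bax, 285 for Mcl1 and 215 for Bcl2, another order.

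The balance between the classes was examined as ratios of summed CPM within each library, as a description without a test. The survival genes over the effectors stood at 2.51, 2.52, 2.09 and 2.02 in KO 1 to 4 and at 2.23, 2.28, 2.68 and 2.74 in WT 1 to 4. The groups overlapped, with the highest values in WT 3 and WT 4 and the lowest in KO 3 and KO 4. The 5 BH3-only genes over the survival genes stood at 0.118, 0.131, 0.133 and 0.155 in KO 1 to 4 and at 0.104, 0.124, 0.105 and 0.105 in WT 1 to 4. Here 3 libraries labelled KO lay above all libraries labelled WT, and KO 1 lay below WT 2. The means were 0.134 ± 0.0157 (KO) and 0.110 ± 0.00957 (WT).

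Within the survival class, the mix of transcripts varied from library to library. Bcl2 over Bcl2l1 was 0.737, 1.19, 0.634 and 0.814 in KO 1 to 4 and 0.498, 0.600, 0.803 and 0.273 in WT 1 to 4, so that the highest value was in a library labelled KO, the lowest in one labelled WT, and the groups overlapped. Bcl2l1 made up 27.2% to 39.6% of the summed CPM of the survival genes in the libraries labelled KO and 36.9% to 55.3% in those labelled WT. The share of Mcl1 was 31.6% to 40.5% and 29.7% to 35.2%, respectively. The survival sum itself was 811 ± 125 CPM (KO) and 879 ± 124 CPM (WT), and the effector sum 356 ± 45.4 CPM (KO) and 356 ± 50.7 CPM (WT).

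**Figure D3:**
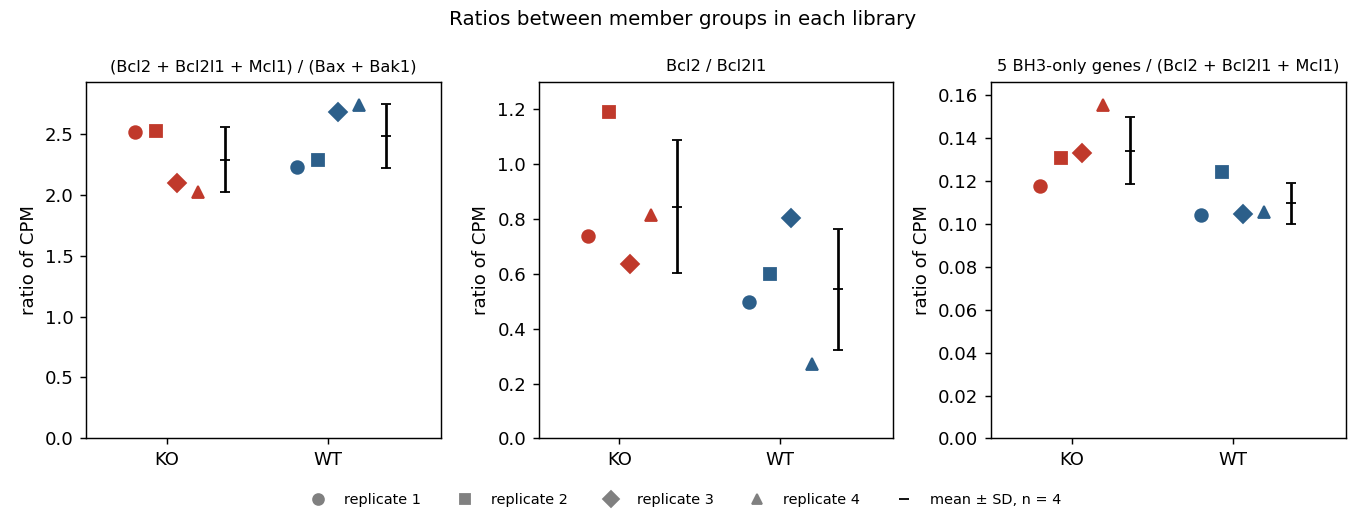
Ratios of CPM (y axes, from 0) in each library labelled KO (red) and WT (blue) for survival genes over effectors, Bcl2 over Bcl2l1, and BH3-only over survival genes, with black bars for the mean ± SD of 4 libraries. All 3 ratios overlap between the groups, and WT 4 has the lowest Bcl2 over Bcl2l1, 0.273.

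The other genes of the family gave the same count of calls. Of 14 further family symbols, 13 were in the table and 6 passed the filter, of which 0 had an adjusted or unadjusted p below 0.05 in edgeR, with 4 log2 fold changes above 0, 2 below and a median of 0.03. The largest rise in value was that of Bmf, a BH3-only gene linked to the cytoskeleton, at 3.92 ± 1.34 CPM (KO) and 3.60 ± 1.22 CPM (WT), a log2 fold change of 0.09 (SE 0.327) that changed sign when KO 1, KO 2 or WT 3 was left out. The largest fall in value was that of the survival gene Bcl2l2, at 7.39 ± 0.947 CPM (KO) and 8.77 ± 1.49 CPM (WT), a log2 fold change of -0.21 (SE 0.202) that lay between -0.12 without WT 4 and -0.32 without WT 3. The copies Bcl2a1a (log2 fold change 0.08) and Bcl2a1d (0.05) are near-identical survival genes among which tags could have been divided, so their values are uncertain. Both are named for this reason, outside the rule for named genes. The tissue-restricted BH3-only genes Bik and Hrk had at most 13 and 4 counts in a library, and the effector-like Bok at most 3, too few for a comparison.

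Downstream of the mitochondria, no transcript of the apoptosome and caspase list passed the test. All 19 genes of this list passed the filter, 0 passed the test and 0 had an unadjusted p below 0.05, with 8 log2 fold changes above 0, 11 below and a median of -0.01. Cycs (cytochrome c, 0.07), Apaf1 (the scaffold of the apoptosome, 0.03) and Casp9 (its initiator caspase, -0.24) are given for their place in the pathway, a choice made with their values known. The largest rise in value was that of Birc6, a giant inhibitor of caspases, at 92.2 ± 17.1 CPM (KO) and 76.8 ± 3.83 CPM (WT), a log2 fold change of 0.26 (SE 0.123, adjusted p = 0.640, edgeR), which was 0.12 without KO 1, the highest library at 118 CPM. The largest fall in value was that of the executioner Casp6, at 10.7 ± 1.62 CPM and 13.2 ± 2.96 CPM, a log2 fold change of -0.31 (SE 0.197).

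Proteins that bind or anchor the members were likewise tested by their transcripts, and 0 of 16 passed, with 7 log2 fold changes above 0, 9 below and a median of -0.02. Dynll2, the dynein light chain that holds BMF at the cytoskeleton, was at 92.0, 112, 113 and 104 CPM in KO 1 to 4 and at 91.6, 90.3, 87.4 and 75.3 CPM in WT 1 to 4. All libraries labelled KO were thus above all labelled WT, though KO 1 and WT 1 nearly met. Its log2 fold change was 0.29 (SE 0.106), with an unadjusted p of 0.0164 and an adjusted p of 0.449 in edgeR, and 1 of 16 genes at this unadjusted level compares with the 7.84% over all genes. Under the alternatives of scaling, filter, test and libraries, Dynll2 lay between 0.19 and 0.35. Without KO 2 and KO 3 the lowest adjusted p among the 16 genes was 0.904 in edgeR. Bmf, the partner of Dynll2, had low levels, 3.92 CPM (KO) and 3.60 CPM (WT), as given above. The largest fall in value was that of Itpr3, a calcium channel bound by BCL2, with a log2 fold change of -0.16 (SE 0.200) that became 0.12 without WT 3.

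Among 23 regulators of the members, 22 were tested, 0 passed and 0 had an unadjusted p below 0.05. Log2 fold changes were above 0 in 7 (31.8%, against 48.2% of all genes tested) and below 0 in 15, with a median of -0.05. Ddit3, which encodes the stress factor CHOP, an inducer of Bcl2l11 and Bbc3, had the largest rise in value, 0.32 (SE 0.186, adjusted p = 0.738, edgeR), from 24.4 ± 5.66 CPM (KO) and 19.5 ± 4.24 CPM (WT), with KO 4 at 32.8 CPM. It was 0.13 without KO 4 and 0.51 without WT 3. Usp9x, a deubiquitinase that stabilizes MCL1, had the largest fall in value, -0.18 (SE 0.144), which was -0.12 without KO 3 and -0.28 without KO 2 or WT 3. Trp53 (log2 fold change -0.02), Foxo3 (0.03), Stat5a (-0.08), Stat5b (-0.08) and Myc (-0.01), which control transcription of members, are given for that role, a choice likewise made with their values known.

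Bax, Bbc3 and Pmaip1 are targets of p53, and 20 further p53 targets were therefore examined beside them. Of these, 19 were tested, 0 passed, and 14 had log2 fold changes below 0 against 5 above, with a median of -0.14. The share above 0 was thus 26.3%, against 48.2% of all genes tested, whose median was -0.01. Among the members, Bax (-0.04) lay below 0 and Bbc3 (0.21) and Pmaip1 (0.46) above. Tigar, a regulator of sugar metabolism, was at 14.2, 15.2, 13.8 and 12.2 CPM in KO 1 to 4 and at 17.2, 15.4, 17.3 and 21.2 CPM in WT 1 to 4, without overlap. Its log2 fold change was -0.36 (SE 0.156), with an unadjusted p of 0.0344 and an adjusted p of 0.579 in edgeR. Only 1 of 19 targets was at this unadjusted level and only 1 was without overlap, beside 7.84% and 5.25% of all genes tested. Phlda3, an inhibitor of AKT, had the largest fall in value, -0.39 (SE 0.259), which was -0.11 without WT 4, -0.22 without KO 2, -0.57 without KO 1 and -0.59 without WT 3. Rrm2b, a subunit of ribonucleotide reductase, had the largest rise in value, 0.25 (SE 0.149), which was 0.15 without WT 3 and 0.39 without WT 4.

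Among the p53 targets, the highest and lowest values often fell in the same libraries, a pattern chosen after the values were seen. WT 4 was the highest library in 11 of 19 targets (57.9%), against 17.9% of all genes tested. KO 2 was the lowest in 8 of 19 (42.1%), against 14.3% of all genes tested. WT 3 was the lowest for Ccng1, Trp53inp1, Zmat3, Perp, Plk2 and Rrm2b, so low ends fell in both groups. Of these, Ccng1, Zmat3, Perp and Plk2 had their highest library, WT 4, in the same group. All of these but Rrm2b are named for this reason, outside the rule for named genes. Cdkn1a, the cell cycle inhibitor p21, picked with its values known, was at 375, 162, 275 and 298 CPM in KO 1 to 4 and at 346, 267, 206 and 569 CPM in WT 1 to 4, so both ends were single libraries. Among the members, WT 4 was highest for Bcl2l1 and Bid. KO 2 was lowest for Bcl2l1, Bax, Bid and Bbc3, and WT 3 was lowest for Bcl2l11 and Pmaip1. Bcl2l1 had its highest and its lowest library where Cdkn1a and Phlda3 had theirs.

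**Figure D4:**
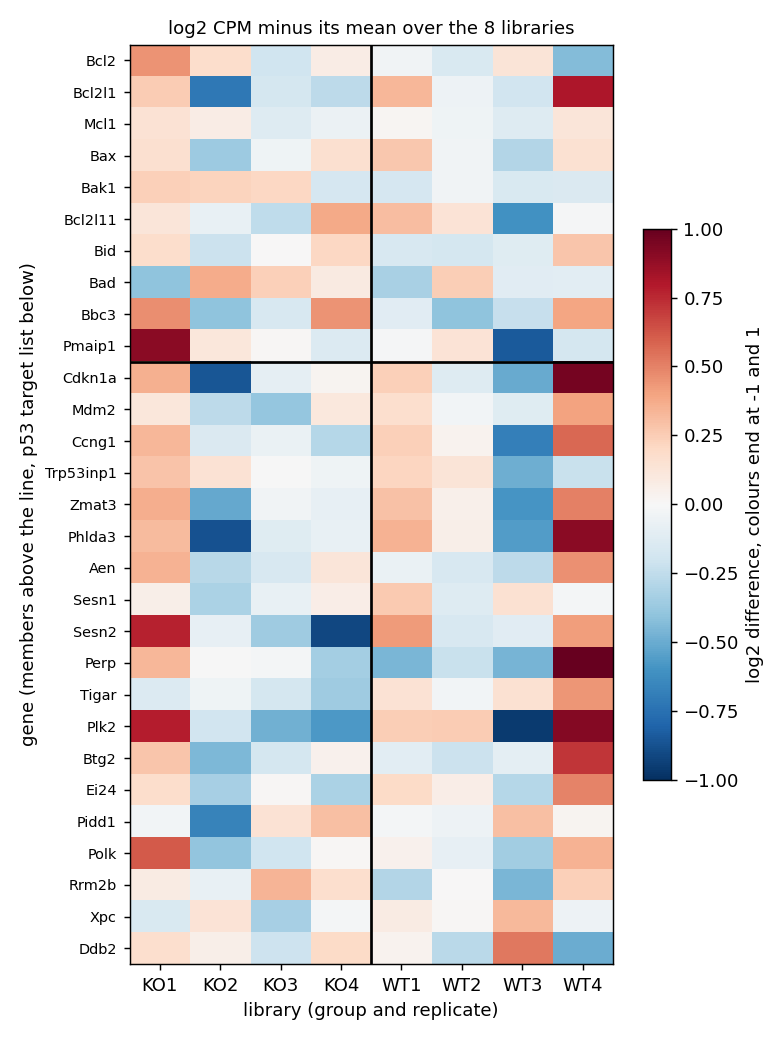
Log2 CPM of the members (upper rows) and of the 19 tested p53 targets (lower rows) minus each gene's mean over the 8 libraries, in colour from -1 to 1, with one column per library. The WT 4 column holds the highest value of 11 p53 targets and the KO 2 column the lowest of 8. The WT 3 column holds the lowest value of Ccng1, Trp53inp1, Zmat3, Perp, Plk2 and Rrm2b.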

How the data were processed

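The deposited table holds unnormalized counts that the authors made for each symbol in each library, for 4 libraries labelled KO and 4 labelled WT from 4 mice each. The submitters' processing notes name Bowtie, edgeR and GRCm38, and per the labels reads were cleaned and trimmed. The version of each tool, the counter and the use of strand or molecular tags are not given in the sources used here. The labels name a small RNA kit and the methods the MACE-Seq Kit. The counting errors given cover counting only, since tags need not be independent molecules.

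Following the filter in the study's methods, genes reaching 2 CPM in 4 or more libraries were tested (12700 of 28239 symbols) with edgeR 4.0.16 in R 4.3.3 (TMM scaling, quasi-likelihood test, not robust, group as the only term), with Benjamini-Hochberg adjustment over all genes tested and a threshold of 0.05. CPM were scaled by TMM, and SE and 95% intervals come from the same fit. Its common dispersion gave a biological coefficient of variation of 14.5%. Pairs of libraries in a group differed by more than counting error (chi-square per degree of freedom 4.62 to 18.2), so none was counted as a duplicate. The members, the gene lists and the rule for named genes were chosen with earlier results of these data known. The named genes are all members, Alox15, genes whose exons overlap a member's, defining markers of other cells, and in each list every gene with an unadjusted p below 0.05 where none passed, plus the largest rise and fall. Genes named outside this rule are marked in the text. Positions and overlaps came from GENCODE (GRCm38), read in Python 3.11.15 (pandas 2.3.3, matplotlib 3.10.9 for figures). The steps were tested on simulated data. Alternatives were other scalings, other filters, a robust fit, DESeq2 1.42.0, limma-voom (limma 3.58.1), the replicate number as a block, rows summed with overlapping genes, each library left out, and, chosen after seeing the data, the libraries labelled KO 2 and KO 3 left out together.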

Additional observations from a re-analysis of the deposited data

Results flagged for a closer look

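In 44 groups of 4 libraries, the members, Alox15 and the genes named by rule from the other lists of the pathway were searched for a library whose gap to its nearest neighbour filled most of the group's range, and 5 were found. The groups share the same libraries, and genes such as Birc6, Ddit3 and Usp9x were named for an extreme value. Whether 5 is more than chance gives was not tested. Bak1 in KO 4 was at 44.9 CPM, while the other libraries labelled KO were at 58.1 to 59.4 CPM. Bid in WT 4 was at 20.99 CPM, while the other libraries labelled WT were at 15.4 to 15.9 CPM. Birc6 in KO 1 was at 118 CPM (the others at 81.3 to 85.1 CPM), Ddit3 in KO 4 at 32.8 CPM (20.9 to 22.7 CPM) and Usp9x in WT 3 at 28.4 CPM (37.9 to 38.4 CPM).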

How the results depend on the processing

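The number of members that passed was 0 in 18 of 19 alternatives and 1, Bcl2l1, without a filter on low counts, where the prior degrees of freedom of edgeR's fit became infinite (8.99 with the filter). The counts for the other family, caspase and apoptosome, partner, upstream regulator and p53 target lists were 0 in all 19, and the marker lists were not rerun. All genes called went from 158 to 388 without a filter, to 100 with at least 10 counts in every library, to 60 without KO 2 and KO 3, and to between 86 and 172 with 1 library left out. Of 195 values of members under the alternatives, 182 kept their direction and their side of the threshold and 12 changed sign. Without a filter Mcl1 was -0.0038 (log2 fold change), without KO 2 and KO 3 Bax was 0.12, Bad -0.0536 and Bmf -0.068, and summed with its overlapping gene Bid was -0.0118. With 1 library left out, the ranges that crossed 0 were -0.0277 to 0.0704 for Mcl1, -0.134 to 0.0593 for Bax, -0.0745 to 0.22 for Bcl2l11, -0.0911 to 0.34 for Bmf and -0.26 to 0.12 for Itpr3. The cause was not tested. Replicate numbers did not pair the libraries (correlations of deviations from -0.178 to 0.165), and with a replicate block 0 members and 146 genes passed, with Bcl2l1 at -0.45 (adjusted p = 0.484, edgeR). Pmaip1, with the fewest counts, had a counting error of 14.2% and a within-group variation of 31.8%.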
